A study of Homo sapiens with 42 samples.

Results

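The Src family of tyrosine kinases was followed in HL-60 cells, a human acute myeloid leukemia line, through 8 genes: the kinases FGR, LYN, FYN, SRC, YES1 and LCK, the inhibitory kinase CSK and the adaptor SLA. The 8 genes were selected on earlier results of these same arrays, among them the size of their response to all-trans retinoic acid (ATRA), and each was read from its 1 probe set, out of 18417 genes measured. They lie, in GRCh38.p14 (RefSeq), at chr1:27612064-27635185 (FGR), chr8:55879835-56014169 (LYN), chr6:111660332-111873452 (FYN), chr20:37344699-37406050 (SRC), chr18:721588-812753 (YES1), chr1:32251265-32286165 (LCK), chr15:74782080-74803197 (CSK) and chr8:133036728-133102602 (SLA). The series holds 14 groups of 3 Affymetrix gene arrays (42 in all), which the study describes as biological triplicates. In the inhibitor experiment (18 arrays, 6 groups), cells received for 3 days 0.1 µM ATRA together with 2.5 µM HKMTI-1-005, a dual inhibitor of the histone methyltransferases EZH2 and G9a (HKMTI_ATRA), ATRA with 10 µM GSK343, an inhibitor of EZH2 (GSK343_ATRA), ATRA alone, HKMTI-1-005 alone (HKMTI), GSK343 alone, or nothing (untreated). In the knockdown experiment (24 arrays, 8 groups), cells carried 1 of 2 lentiviral hairpins against EZH2 (shEZH2_1, shEZH2_2), a non-targeting hairpin (Scr), or no hairpin (WT, read here as untransduced cells), each with and without ATRA. Transduced cells were puromycin-selected pools rather than clones, and all groups share the HL-60 background.

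Src family kinases sit at the inner face of the plasma membrane and pass on signals of receptors that have no kinase of their own, such as integrins, Fc receptors and cytokine receptors. They are held closed when CSK phosphorylates a tyrosine in their tail, and open when phosphatases such as CD45 remove that phosphate. Active kinases phosphorylate signaling chains that bear ITAM motifs, which then recruit SYK, while SLA, a Src-like adaptor without a kinase domain, dampens such signaling by bringing in the ubiquitin ligase CBL. In myeloid cells FGR and LYN are known for adhesion, phagocytosis and granule release, LCK is the member of T cells, and SRC, YES1 and FYN are found in many tissues.

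All values below are log2 values of the authors' GC-RMA processing, in which a difference of 1 is a doubling. Over all 42 arrays LYN had the highest mean of the 8 genes (10.96, above 97.04% of genes). Levels of different probe sets are not on a common scale, so means and ranks across genes are only a rough guide. SLA ranked above 84.46% of genes, FYN above 78.76%, CSK above 72.79%, FGR above 72.37% and YES1 above 65.19%. LCK (mean 5.18, above 44.53%) and SRC (mean 4.85, above 37.9%) lay below the top 40% of genes by mean (lowest mean 6.88), which alone could be called, so that no change of theirs could pass. The cell line's own markers were present, from AZU1 at 6.99 and ELANE at 7.5 to MPO at 12.95, and those of other lineages were mostly in the lower part of the range: CD14 averaged 4.52, CD3E 4.5 and CD79A 5.12 (above 43.5% of genes), while the erythroid factor KLF1 stood mid-range at 5.69 (above 50.1% of genes). EZH2 mRNA was lower with shEZH2_1 and shEZH2_2 than with Scr by log2 differences of -1.09 (adjusted p = 0.000115, limma) and -1.07 (adjusted p = 0.000249), and with ATRA of -0.96 and -0.60. In the knockdown experiment 6 arrays had higher array medians (5.47 to 5.56) than the other 18 (5.31 to 5.44), namely Scr replicates 1 and 2, Scr_ATRA replicate 3, WT_ATRA replicate 3, shEZH2_1 replicate 1 and shEZH2_2 replicate 2.

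The first question was how the 8 genes behaved under ATRA in each background. FGR and SLA were higher with ATRA in all 7 backgrounds, LYN was higher by less, and FYN was lower, while CSK, YES1, LCK and SRC changed little. Because the genes were chosen by these differences, the values are given as a description, and no p-value of theirs is reported.

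FGR, a kinase of granulocytes and monocytes that acts below integrins and Fc receptors, is the member with the largest ATRA difference. The 250 bases before each of its annotated starts, both on the minus strand of chromosome 1 in GRCh38.p14 (RefSeq), are printed because FGR carries the ATRA pattern. Capitals mark GAGGAA or its complement TTCCTC, the core bound by the myeloid factor PU.1 (product of SPI1), searched on both strands.
FGR, upstream start, chr1:27635186-27635435: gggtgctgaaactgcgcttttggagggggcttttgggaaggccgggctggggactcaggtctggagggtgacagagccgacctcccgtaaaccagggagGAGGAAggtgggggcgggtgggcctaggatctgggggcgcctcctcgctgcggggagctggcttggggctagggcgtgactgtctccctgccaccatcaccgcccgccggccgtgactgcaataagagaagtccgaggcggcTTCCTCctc
FGR, downstream start, chr1:27626598-27626847: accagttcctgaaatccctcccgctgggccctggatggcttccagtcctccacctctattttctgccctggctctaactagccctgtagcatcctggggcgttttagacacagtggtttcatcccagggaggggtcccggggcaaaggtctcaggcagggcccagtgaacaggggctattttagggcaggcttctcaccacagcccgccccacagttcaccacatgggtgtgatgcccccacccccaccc
The upstream window held 2 matches, with first bases 151 and 9 bases before the start, and the downstream window held 0, where 23.57% of 35116 promoter windows of this length held at least 1. The hexamer AGGTCA, the unit of the sites that retinoic acid receptors bind, was in neither window on either strand, against 12.08% of windows. Of the 8 genes, 5 had windows in the set used here (10 in all), which held none for LYN, SRC and SLA. AGGTCA was in 0 of the 10, and GAGGAA was otherwise found only once, in the window of CSK.

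In the inhibitor experiment FGR read 10.10, 9.99 and 9.42 in the ATRA arrays, against 5.72, 6.11 and 6.10 in untreated arrays. It read 9.91, 9.76 and 9.94 in HKMTI_ATRA arrays, against 5.98, 6.43 and 6.41 in HKMTI arrays. It read 9.99, 9.88 and 9.38 in GSK343_ATRA arrays, against 6.31, 6.27 and 6.98 in GSK343 arrays. In these 3 pairs every array with ATRA lay more than 2 log2 units above every array without it. In the knockdown experiment FGR read 9.86, 10.30 and 10.56 in shEZH2_1_ATRA arrays, against 5.98, 6.11 and 6.53 in shEZH2_1 arrays. It read 10.12, 10.00 and 10.34 in shEZH2_2_ATRA arrays, against 6.54, 6.37 and 5.91 in shEZH2_2 arrays. Both hairpin groups thus had the highest FGR means of the 14 groups. FGR read 9.25, 9.79 and 9.16 in Scr_ATRA arrays, against 6.31, 6.68 and 6.50 in Scr arrays, and 9.33, 9.98 and 8.41 in WT_ATRA arrays, against 6.35, 6.26 and 6.25 in WT arrays. WT_ATRA replicate 3, one of the arrays of high median, held the lowest FGR value of all 21 ATRA arrays. The log2 difference with ATRA was 3.86 (14.5-fold) over untreated, 3.59 over HKMTI, 3.23 over GSK343, 4.04 (16.4-fold) over shEZH2_1, 3.88 over shEZH2_2, 2.91 over Scr and 2.95 over WT (standard error 0.27 each). The last value was 3.37 without WT_ATRA replicate 3 and 2.58 without WT_ATRA replicate 2. Ordered by mean, the 14 groups fell into 7 with and 7 without ATRA, separated by 2.72 log2 units between WT_ATRA and GSK343, and 11 of the 13 pairs of neighbours in that order overlapped. The other break lay between shEZH2_2_ATRA (10.15) and HKMTI_ATRA (9.87).

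SLA, whose product restrains signaling of immune receptors, followed the same division at a higher rank. It read 10.70, 10.40 and 10.00 in ATRA arrays, against 7.83, 7.56 and 7.56 in untreated arrays. It read 10.15, 9.86 and 10.08 in HKMTI_ATRA arrays, against 7.94, 8.19 and 8.24 in HKMTI arrays, and 10.55, 10.36 and 10.10 in GSK343_ATRA arrays, against 7.95, 8.05 and 8.80 in GSK343 arrays. Untreated cells had the lowest SLA mean of the 14 groups. In the knockdown experiment it read 9.92, 10.26 and 10.21 in shEZH2_1_ATRA arrays, against 7.96, 7.76 and 8.53 in shEZH2_1 arrays. It read 10.15, 9.81 and 10.11 in shEZH2_2_ATRA arrays, against 9.01, 7.98 and 8.83 in shEZH2_2 arrays. SLA without ATRA spread most in shEZH2_2 (SD 0.552), Scr (SD 0.514) and GSK343 (SD 0.463), whereas its WT arrays stood close together (SD 0.069). It read 9.81, 9.95 and 9.50 in Scr_ATRA arrays, against 8.16, 7.71 and 8.73 in Scr arrays, and 9.85, 10.37 and 9.57 in WT_ATRA arrays, against 8.28, 8.39 and 8.27 in WT arrays. No group with ATRA overlapped its own group without it. The log2 difference was 2.72 over untreated (6.59-fold), 1.90 over HKMTI, 2.07 over GSK343, 2.05 over shEZH2_1, 1.42 over shEZH2_2, 1.55 over Scr and 1.61 over WT (standard error 0.25 each). Across the series the lowest ATRA array (9.50) lay above the highest array without ATRA (9.01).

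LYN, a kinase that both starts and limits signaling of myeloid and B cell receptors, read high without ATRA and gained less. It read 11.59, 11.49 and 11.34 in ATRA arrays, against 10.37, 10.46 and 10.41 in untreated arrays. It read 11.41, 11.25 and 11.50 in HKMTI_ATRA arrays, against 10.54, 10.65 and 10.71 in HKMTI arrays, and 11.57, 11.43 and 11.28 in GSK343_ATRA arrays, against 10.40, 10.39 and 10.53 in GSK343 arrays. These pairs were clearly apart, at log2 differences of 1.06 (2.09-fold), 0.75 and 0.99 (standard error 0.155 each). In the knockdown experiment LYN read 11.21, 11.20 and 11.51 in shEZH2_1_ATRA arrays, against 10.80, 10.56 and 11.16 in shEZH2_1 arrays, and 11.55, 11.19 and 11.41 in shEZH2_2_ATRA arrays, against 10.81, 10.48 and 10.89 in shEZH2_2 arrays. It read 10.92, 10.88 and 10.79 in Scr_ATRA arrays, against 10.52, 10.33 and 10.90 in Scr arrays, and 11.25, 11.50 and 10.86 in WT_ATRA arrays, against 11.11, 10.68 and 10.59 in WT arrays. The groups overlapped in Scr and WT. The differences were 0.47 over shEZH2_1, 0.65 over shEZH2_2, 0.28 over Scr and 0.41 over WT, and that over Scr was -0.005 without the 6 arrays of high median, a setting chosen after seeing the data that left 1 Scr array.

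**Figure D1:**
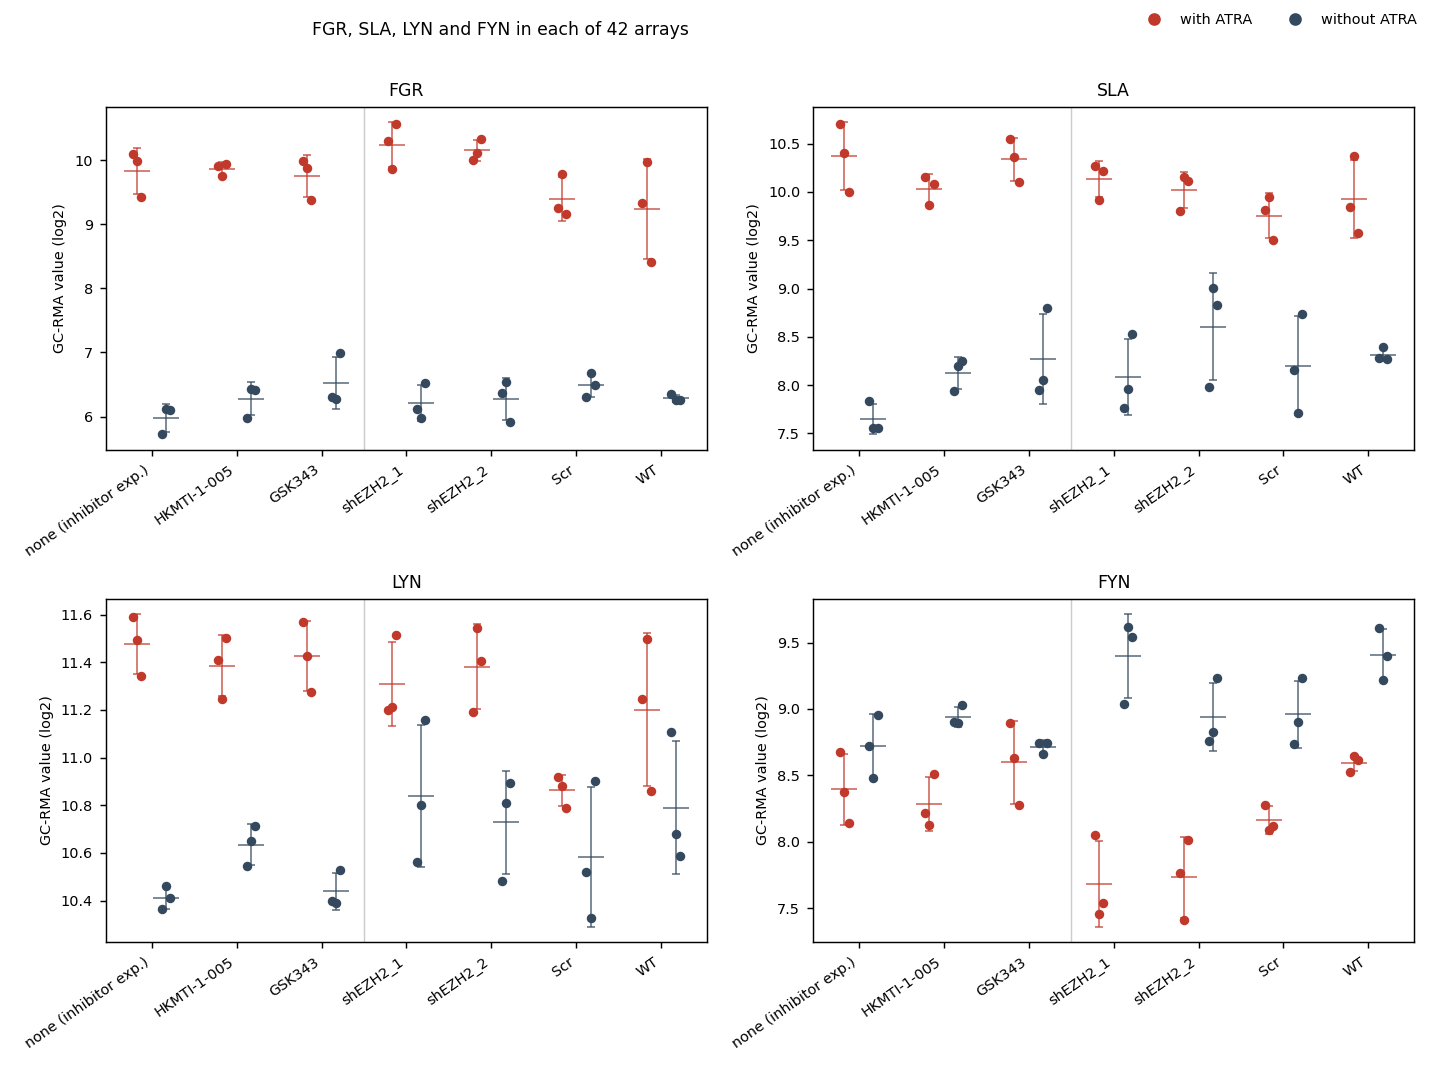
GC-RMA values (log2, vertical axis) of FGR, SLA, LYN and FYN in each of 42 arrays, by background (horizontal axis). Each point is an array, and horizontal marks with bars are the mean ± SD of 3 arrays, with ATRA (red, left) and without ATRA (dark, right). The grey line divides the inhibitor from the knockdown experiment. FGR and SLA are above their own control in every background, and FYN with ATRA is lowest in both shEZH2 groups, at means of 7.68 and 7.73.

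FYN, a kinase of many tissues that signals below antigen and adhesion receptors, went the other way. It read 7.46, 8.05 and 7.54 in shEZH2_1_ATRA arrays, against 9.61, 9.04 and 9.54 in shEZH2_1 arrays, the widest gap of the 7 backgrounds (log2 difference -1.72, 3.28-fold lower). It read 7.41, 7.76 and 8.01 in shEZH2_2_ATRA arrays, against 8.83, 8.76 and 9.23 in shEZH2_2 arrays (-1.21). It read 8.28, 8.09 and 8.12 in Scr_ATRA arrays, against 8.74, 8.90 and 9.24 in Scr arrays (-0.80). All arrays of these ATRA groups were below their controls. FYN read 8.53, 8.64 and 8.61 in WT_ATRA arrays, against 9.61, 9.21 and 9.40 in WT arrays (-0.81), and 8.22, 8.12 and 8.51 in HKMTI_ATRA arrays, against 8.90, 8.89 and 9.03 in HKMTI arrays (-0.65, standard error 0.18 each). The other 2 backgrounds overlapped. FYN read 8.67, 8.38 and 8.14 in ATRA arrays, against 8.72, 8.48 and 8.96 in untreated arrays (-0.33), and 8.89, 8.63 and 8.27 in GSK343_ATRA arrays, against 8.74, 8.66 and 8.74 in GSK343 arrays (-0.12).

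The remaining members moved little with ATRA. CSK, the kinase that closes the family, differed by -0.32 to 0.12 over the 7 backgrounds, and YES1, a widely expressed kinase close to SRC, by -0.38 to -0.003, each with overlapping groups throughout. LCK, the T cell kinase, differed by -0.13 to 0.22 and SRC by 0.03 to 0.41, both at low levels. SRC read 5.24, 5.10 and 4.91 in ATRA arrays, against 4.67, 4.62 and 4.72 in untreated arrays, its widest gap. Across the series the 21 ATRA arrays of SRC ran between 4.79 and 5.24 with a median of 4.91, against 4.62 to 4.94 with a median of 4.79 for the 21 arrays without ATRA.

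**Figure D2:**
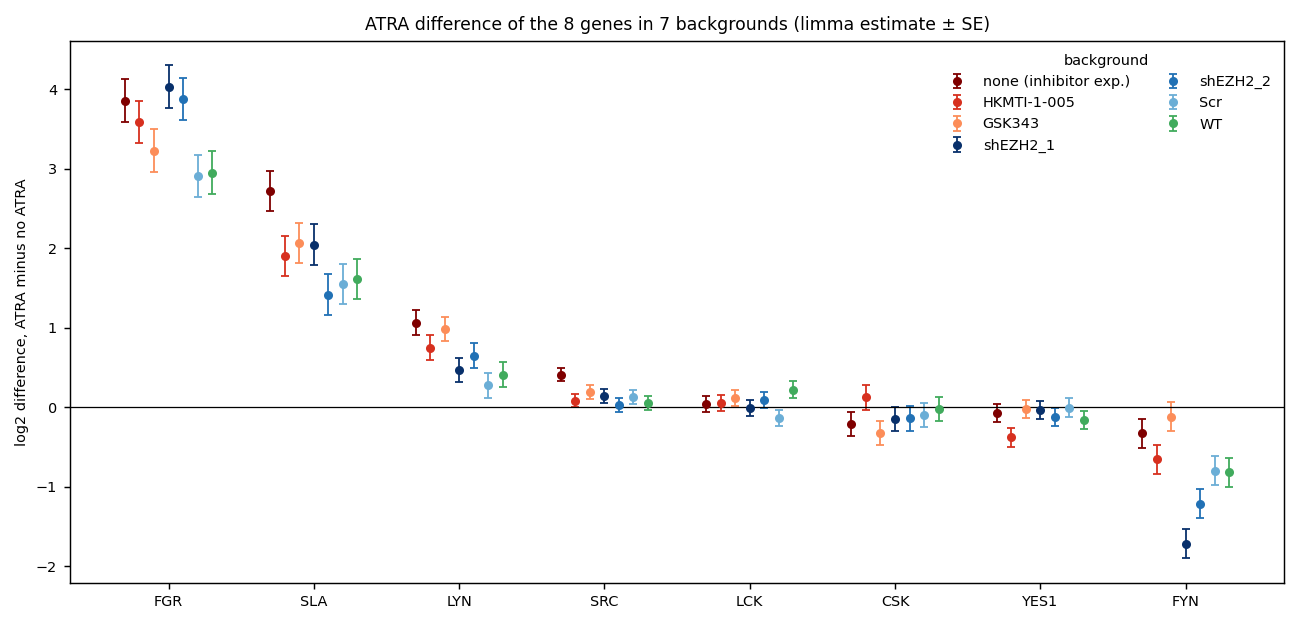
Log2 difference between arrays with and without ATRA (vertical axis) of the 8 genes (horizontal axis) in 7 backgrounds (colours). Points are limma estimates and bars are ± 1 standard error. FGR lies between 2.91 and 4.04, SLA between 1.42 and 2.72, LYN between 0.28 and 1.06 and FYN between -1.72 and -0.12, while the other 4 genes stay within 0.41 of 0.

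A gene was called where its adjusted p was 0.05 or less (limma, Benjamini-Hochberg over 18417 genes), its fold at least 1.3 and its mean in the top 40%. Under ATRA the rule took FGR and SLA in 7 of 7 backgrounds, LYN in 4 (untreated, HKMTI, GSK343 and shEZH2_2) and FYN in 5, that is 3 of the 8 genes over untreated, 4 over HKMTI, 3 over GSK343, 3 over shEZH2_1, 4 over shEZH2_2, 3 over Scr and 3 over WT. Of all genes it took 5.23% over untreated, 1.62% over HKMTI, 4.16% over GSK343, 3.46% over shEZH2_1, 3.34% over shEZH2_2, 1.99% over Scr and 0.852% over WT. Nothing is read from the members' counts, since the choice of the genes used these contrasts. The markers of maturing granulocytes moved alongside: the mean of the 3 measured of 4 listed (ITGAM, CYBB, CSF3R) was 8.69 to 10.99 in ATRA arrays, against 8.10 to 9.09 in arrays without ATRA. The monocyte markers CD14 and CSF1R stayed at a mean of 4.31 to 4.92 in ATRA arrays, against 4.30 to 4.96 without ATRA. The part of maturation in the levels of the 8 genes was not tested, and in bulk RNA a change in the share of cells that express a gene and a change in RNA per cell cannot be told apart.

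Whether the inhibitors changed the 8 genes was asked without and with ATRA, in comparisons other than the ATRA differences. They share arrays with those differences, so their p-values are not fully independent of the choice of the genes. YES1 was the member called, lower in HKMTI_ATRA cells. It read 6.78, 6.75 and 7.31 in HKMTI_ATRA arrays, against 7.60, 7.51 and 7.30 in ATRA arrays and 7.60, 7.45 and 7.44 in GSK343_ATRA arrays. Replicates 1 and 2 of HKMTI_ATRA were the lowest YES1 values of the series, and replicate 3 reached the level of the lowest ATRA array. The log2 difference over ATRA was -0.52 (1.44-fold lower, standard error 0.115, adjusted p = 0.0216, limma), where 0.304% of genes were called, and over GSK343_ATRA it was -0.55 (1.46-fold lower, adjusted p = 0.0105), where 0.429% were called. The inhibitors' doses differ. Over ATRA the call was lost without ATRA replicate 1 or 2 (-0.46 and -0.50, adjusted p = 0.212 and 0.1), without HKMTI_ATRA replicate 1 or 2 (-0.44 and -0.43, adjusted p = 0.17 and 0.222), with 1 fit per experiment (-0.52, adjusted p = 0.0532), with centring on array medians (-0.49, adjusted p = 0.0608) and by the methods' t-test (adjusted p = 0.463). Over GSK343_ATRA it was lost without GSK343_ATRA replicate 1 (-0.49, adjusted p = 0.104), without HKMTI_ATRA replicate 1 or 2 (-0.46 and -0.45, adjusted p = 0.114 and 0.146) and by the t-test (adjusted p = 0.534). The methods' t-test is the unpaired t-test that the study names for its experiments in general, applied here to the arrays. For the arrays the study describes testing by false discovery rate, so this t-test is not its array method.

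Without ATRA, HKMTI over untreated called 0 of the 8 genes, against 0.0869% of all genes. LYN (0.22) and SLA (0.48) were higher in every HKMTI array than in any untreated array and YES1 (-0.21) was lower in every one, but each had an adjusted p of 1. GSK343 over untreated also called 0, against 0.00543%. FGR (0.54, 95% interval 0.001 to 1.09) and SLA (0.62, 0.10 to 1.14) stood above untreated in all 3 GSK343 arrays, again with an adjusted p of 1 and unadjusted p of 0.0495 and 0.0201. Without GSK343 replicate 3, the highest of the 3 for both genes, the differences were 0.31 and 0.35. With ATRA present GSK343 called 0 (GSK343_ATRA over ATRA, 0.00543% of genes), and the interval of the difference was -0.63 to 0.46 for FGR, -0.55 to 0.49 for SLA and -0.37 to 0.27 for LYN. HKMTI_ATRA over ATRA gave intervals of -0.51 to 0.58 for FGR, -0.86 to 0.18 for SLA and -0.41 to 0.23 for LYN. CSK in HKMTI_ATRA cells read 8.43, 8.30 and 8.07, against 7.70, 7.86 and 8.14 in ATRA cells, a difference of 0.36 that did not pass (adjusted p = 0.347). HKMTI over GSK343 without ATRA called 0 of the 8, against 0.157%.

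**Figure D3:**
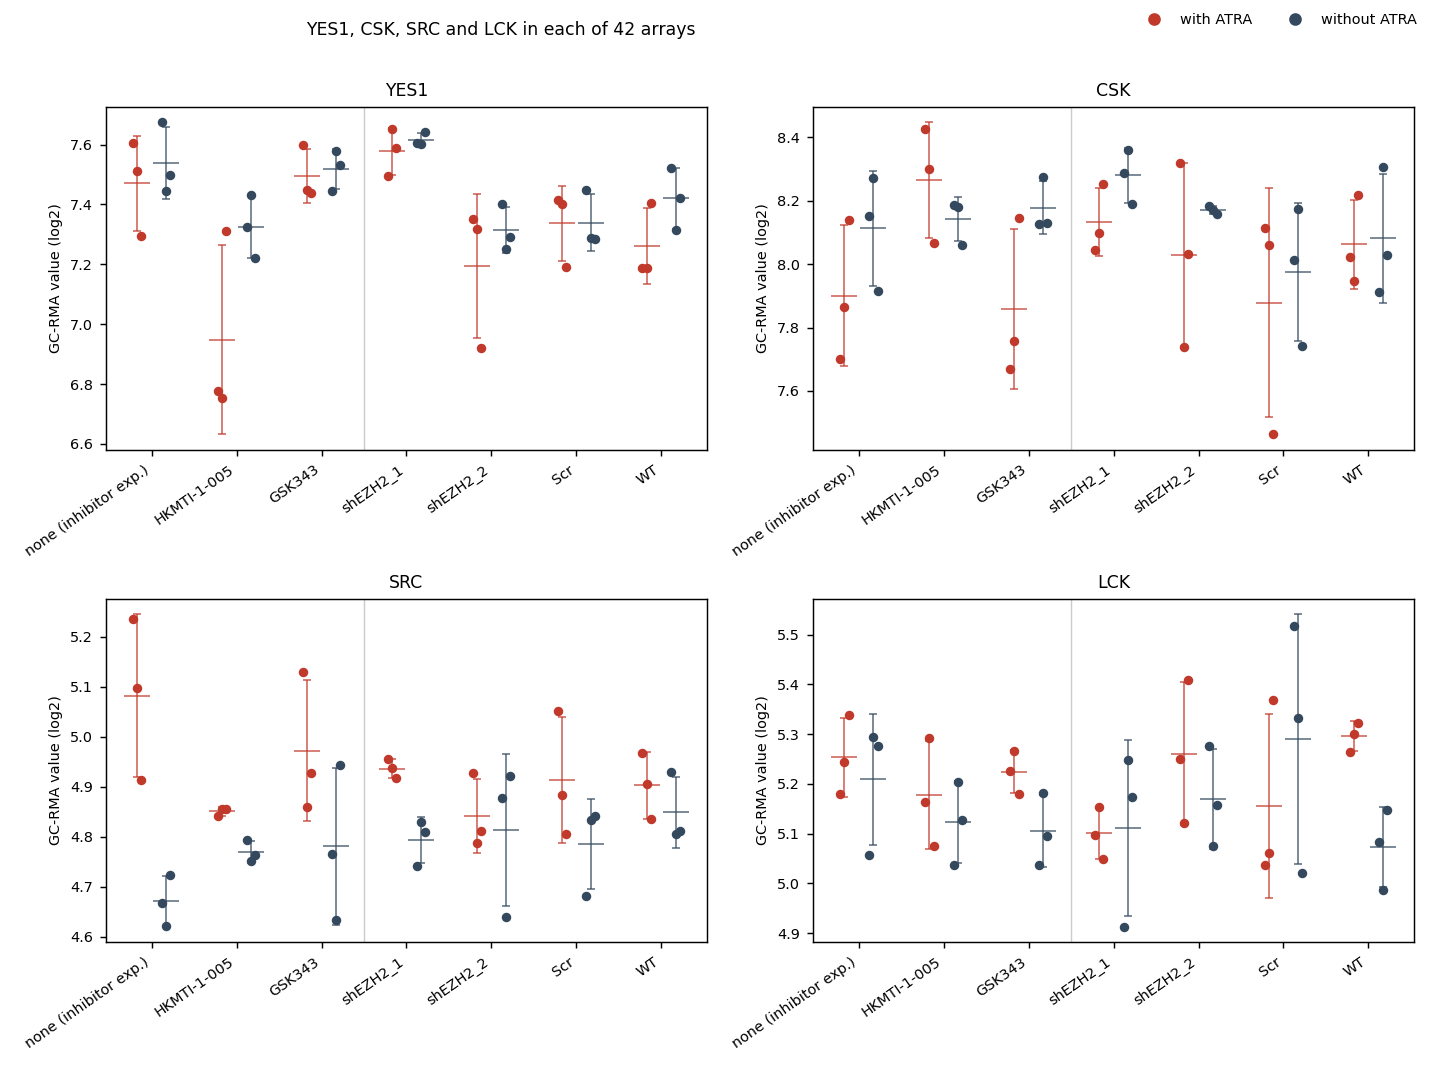
GC-RMA values (log2, vertical axis) of YES1, CSK, SRC and LCK in each of 42 arrays, by background (horizontal axis), drawn as points with the mean ± SD of 3 arrays, with ATRA (red, left) and without ATRA (dark, right). YES1 is lowest in HKMTI_ATRA cells (mean 6.95), where 1 of the 3 arrays lies apart at 7.31.

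In the knockdown experiment, the question was whether less EZH2 changed the 8 genes. These comparisons too share arrays with the ATRA differences and are not fully independent of the choice of the genes. Without ATRA none was called against Scr, for shEZH2_1 (2.43% of genes called) or shEZH2_2 (0.983%), nor for both hairpins together against WT (0.163%). FGR differed by -0.29 with shEZH2_1 (95% interval -0.83 to 0.26) and by -0.22 with shEZH2_2 (-0.76 to 0.32). FYN was 0.44 higher with shEZH2_1 than with Scr (adjusted p = 0.184) and passed without Scr replicate 3 (0.58, adjusted p = 0.0452), and it differed by -0.02 with shEZH2_2.

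With ATRA, FGR was higher and FYN lower with the EZH2 hairpins than in WT cells. Hairpin cells were also transduced and puromycin-selected, unlike WT cells as read here. Scr_ATRA over WT_ATRA differed by -0.43 for FYN and 0.16 for FGR, neither called, and the part of transduction was not tested. The mean of both hairpin groups, called EZH2 KD_ATRA here, was 0.96 above WT_ATRA for FGR (1.94-fold, standard error 0.231, adjusted p = 0.0181, limma), with 6 arrays at 9.86 to 10.56 and WT_ATRA at 9.33, 9.98 and 8.41. Those ranges overlapped, and without WT_ATRA replicate 3 the difference was 0.55 (adjusted p = 0.402). FYN differed by -0.89 (1.85-fold lower, standard error 0.157, adjusted p = 0.00108), with all 6 hairpin arrays (7.41 to 8.05) below the 3 WT_ATRA arrays, and its adjusted p lay between 0.000379 and 0.021 when any 1 array was left out. These 2 of 8 genes were called where 1.31% of all genes were. The unpaired t-test that the methods name for experiments in general, not for the arrays, gave an adjusted p of 0.433 for FGR and 0.285 for FYN.

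Against the non-targeting control with ATRA, the differences of FGR, LYN and FYN did not pass. FGR was 0.84 higher in shEZH2_1_ATRA (adjusted p = 0.0791) and 0.75 higher in shEZH2_2_ATRA (adjusted p = 0.167) than in Scr_ATRA, with each hairpin array above each Scr_ATRA array, and the first passed without Scr_ATRA replicate 2 (1.04, adjusted p = 0.038). LYN was 0.45 (adjusted p = 0.116) and 0.52 (adjusted p = 0.0921) higher, also without overlap, and the second passed after quantile normalization (0.44, adjusted p = 0.0463). FYN differed by -0.48 (adjusted p = 0.161) and -0.43 (adjusted p = 0.274), again without overlap. YES1 was also higher without overlap in shEZH2_1_ATRA (0.24, adjusted p = 0.296, limma), but overlapped in shEZH2_2_ATRA (-0.14). How many of all genes did not overlap was not counted, so nothing is read from the lack of overlap. SLA differed by 0.38 and 0.27 (adjusted p = 0.511 and 0.724). In these comparisons 0 of the 8 genes were called, against 2.03% and 0.842% of all genes, and the Scr_ATRA arrays are shared by both. The 3 granulocyte markers had a mean of 9.96 to 10.99 in the 6 hairpin arrays with ATRA, against 9.18 to 9.56 in Scr_ATRA and 8.69 to 9.55 in WT_ATRA arrays, and their part in the differences was not tested.

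**Figure D4:**
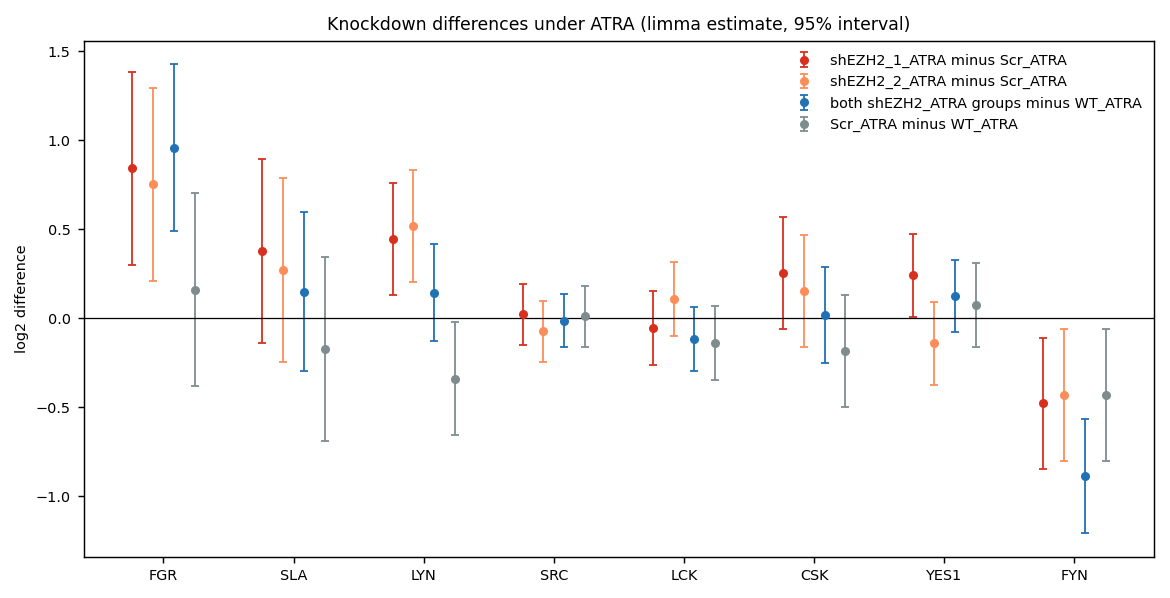
Log2 differences (vertical axis) of the 8 genes (horizontal axis) between ATRA-treated groups of the knockdown experiment, as limma estimates with 95% intervals. FGR is 0.84, 0.75 and 0.96 higher in the 3 hairpin comparisons, and FYN differs by -0.48, -0.43 and -0.89, while Scr_ATRA minus WT_ATRA is 0.16 for FGR and -0.43 for FYN.

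The controls themselves differed. Scr against WT called 8.62% of genes without ATRA and 0.396% with ATRA, but 0 of the 8. FYN had the largest difference without ATRA (-0.45, adjusted p = 0.0992), which passed without Scr replicate 3 (-0.59, adjusted p = 0.0265) and after centring on array medians (-0.61, adjusted p = 0.0267), and with ATRA it was -0.43 with no overlap (adjusted p = 0.442).

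At an unadjusted p under 0.05 the limma fit took 0 to 4 of the 8 genes in the 14 comparisons of inhibitors, hairpins and controls. The highest count, 4 (FGR, LYN, FYN and YES1), was in shEZH2_1_ATRA over Scr_ATRA, where 2903 of all 18417 genes were also under it. Over the 14 comparisons 631 (GSK343_ATRA over ATRA) to 5091 (Scr over WT) of all genes were. The methods' t-test took 0 to 3 of the 8 at that unadjusted threshold, again with the highest count in shEZH2_1_ATRA over Scr_ATRA (3, FGR, LYN and YES1) and in HKMTI over untreated (3, LYN, SRC and SLA), and 0 in each comparison after adjustment. How many of all genes the t-test took was not counted, at the unadjusted threshold or after adjustment. Nothing is thus read from its counts or from calls lost by it, here or in other paragraphs.

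The terms that ask whether the ATRA difference itself changed between backgrounds are differences of the values by which the genes were chosen, so for the 8 genes they are given as a description and without a test. Of all genes, the rule took 0% for HKMTI by ATRA, 0% for GSK343 by ATRA, 0% for HKMTI against GSK343 by ATRA, 0.00543% for shEZH2_1 by ATRA, 0% for shEZH2_2 by ATRA, 0% for Scr by ATRA and 0% for WT_ATRA minus WT against ATRA minus untreated, across experiments. For FGR the term was 1.13 for shEZH2_1 against Scr and 0.97 for shEZH2_2 against Scr (standard error 0.376 each). For FYN these terms were -0.92 and -0.41 (standard error 0.257 each). The term across experiments was -1.11 for SLA (standard error 0.358), -0.65 for LYN (standard error 0.219) and -0.91 for FGR, and that of FGR was -0.49 without WT_ATRA replicate 3 and -1.27 without WT_ATRA replicate 2.

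Partners of the family were counted over a list of 45 genes, of which 40 were measured and 30 lay in the top 40%. The other 5 were not analysed here. Of all 18417 genes only 7367 could be called, a smaller part than of the list. The shares of all genes below are thus not a like measure for the list's counts. Under ATRA 10 of the 40 were higher and 4 lower over untreated, 5 and 1 over HKMTI, 10 and 2 over GSK343, 10 and 1 over shEZH2_1, 10 and 1 over shEZH2_2, 7 and 1 over Scr, and 2 and 1 over WT, by the rule that took 5.23%, 1.62%, 4.16%, 3.46%, 3.34%, 1.99% and 0.852% of all genes in the same order. The 3 calls over WT were 6 after quantile normalization, 7 without the 6 arrays of high median and 1 with centring on array medians or with 1 fit per experiment, and the 12 over GSK343 were 7 with that centring. Their median difference was 0.06 to 0.14 over the 7 backgrounds, and that of all genes -0.02 to 0.01.

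In each background 0 to 5 of the 6 measured receptors and signaling chains and 2 to 5 of the 21 measured kinases, adaptors and substrates downstream passed upwards. TYROBP, the ITAM chain also called DAP12, was higher by 0.87 to 2.20 and passed in 5 of 7 backgrounds. ITGAM, the CD11b integrin chain, was higher by 0.27 to 1.95 and passed in 5, FCER1G, the gamma chain of Fc receptors, by 0.74 to 1.25 and in 4, and ITGB2, the partner of CD11b, by 0.38 to 0.75 and in 5. CSF3R, the G-CSF receptor, passed in both hairpin backgrounds (1.54 over shEZH2_1, 1.60 over shEZH2_2). FCGR2A, an Fc receptor, differed by -0.62 to -0.15 and passed in none. Downstream, LCP2, the adaptor SLP-76, was higher by 0.66 to 1.07 and was the listed gene that passed in all 7 backgrounds. SKAP2, an adaptor of integrin signaling, passed in 6 (0.52 to 1.08), and PRAM1, an adaptor of granulocytes, in 5 (0.49 to 1.12). The tyrosine kinase TEC was lower by differences of -1.47 to -0.48 and passed in 5. Among inhibitors, UBASH3B, a phosphatase that acts on SYK, was higher by 0.51 to 0.91 (5 backgrounds) and PTPN22, a phosphatase that acts on Src family kinases, by 0.26 to 1.39 (3 backgrounds). PAG1, the membrane anchor of CSK, was lower over untreated (-0.78) and shEZH2_1 (-0.79). SYK, the kinase that ITAM chains recruit, and MATK, a relative of CSK, were also lower over untreated (-0.62 and -0.48), as were the adaptors LAT2 over GSK343 (-0.71) and DOK3 over WT (-0.52). The adaptor DOK2 was higher over untreated, HKMTI and GSK343 (0.96, 0.76 and 0.86) and PTPRC over Scr (0.96).

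**Figure D5:**
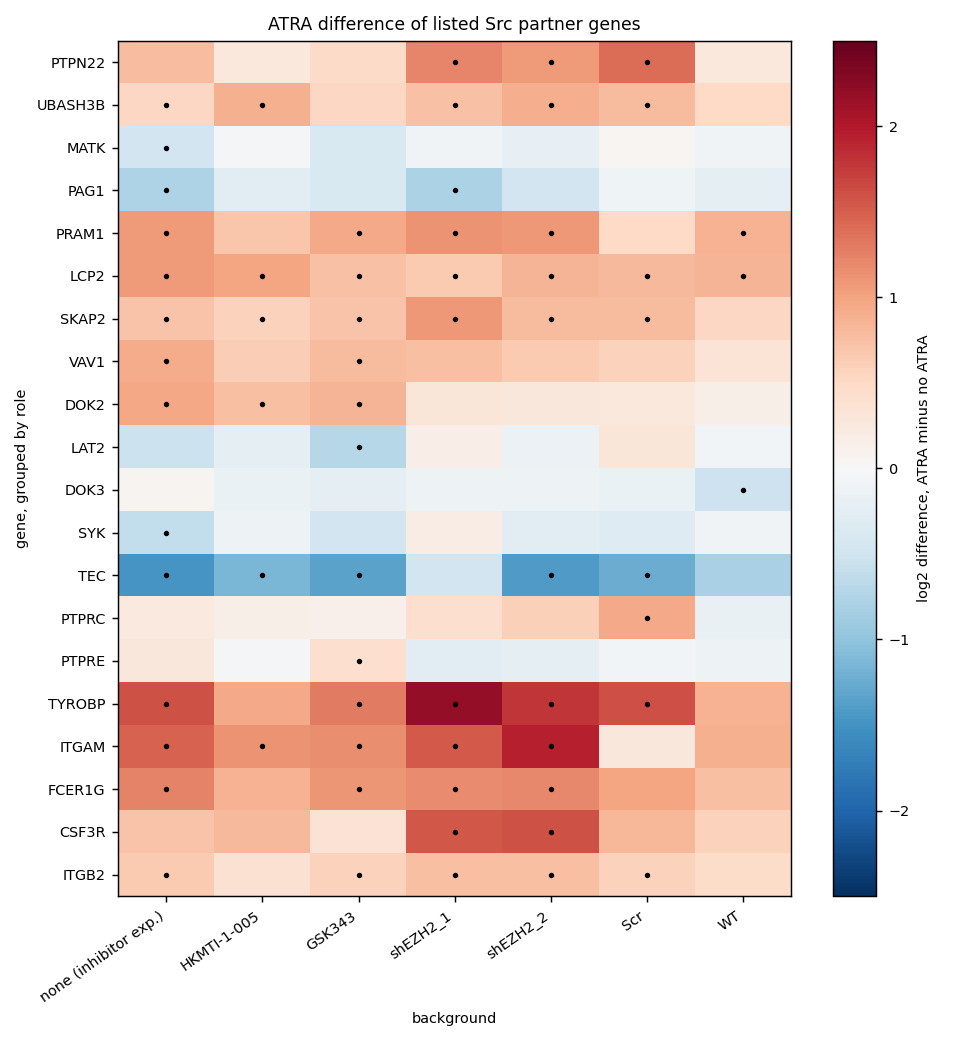
Log2 difference between arrays with and without ATRA (colour) of the 20 listed partner genes that passed the rule in at least 1 of 7 backgrounds (columns), grouped by role (rows). Dots mark the 65 of 140 cells past the rule. TYROBP and ITGAM are most strongly red in the shEZH2 columns (up to 2.20 and 1.95), and TEC is blue throughout.

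In the tested comparisons the partner list had few calls among the inhibitors: 0 of 40 for HKMTI or GSK343 over untreated or with ATRA over ATRA, VAV3, a signaling protein related to VAV1, lower in HKMTI than in GSK343 cells (-0.47, adjusted p = 0.0259, limma) and in HKMTI_ATRA than in GSK343_ATRA cells (-0.46, adjusted p = 0.0161), and SYK higher in HKMTI_ATRA than in GSK343_ATRA cells (0.69, adjusted p = 0.0251). Of all genes the rule took 0.0869% for HKMTI and 0.00543% for GSK343 over untreated, and 0.304% and 0.00543% with ATRA over ATRA. It took 0.157% for HKMTI over GSK343 and 0.429% for HKMTI_ATRA over GSK343_ATRA. With centring on array medians none of these 3 calls of VAV3 and SYK passed. VAV3 without ATRA was also not called with 1 fit per experiment, quantile normalization, a trended, robust prior or the methods' t-test. Neither call with ATRA passed that t-test. FYB1, an adaptor, lay below the top 40% by mean and could not be called. It was higher in HKMTI_ATRA than in ATRA cells (1.03, adjusted p = 0.0173, limma) and than in GSK343_ATRA cells (0.95, adjusted p = 0.0225). With no expression filter 1 of the 40 was called for HKMTI_ATRA over ATRA. Of the 40 genes, 4 were called in each comparison of a hairpin with Scr, where the rule took 2.43% (shEZH2_1) and 0.983% (shEZH2_2) of all genes without ATRA and 2.03% and 0.842% with ATRA. With 1 fit per experiment the 4 became 2 for shEZH2_1 and 0 for shEZH2_2 without ATRA, and with centring on array medians 2 for shEZH2_2. By the methods' t-test 0 were called for either hairpin over Scr without ATRA, and 0 for Scr over WT. Without ATRA, PTPRC, which encodes CD45, was higher with shEZH2_1 (1.25, adjusted p = 0.00143) and shEZH2_2 (0.95, adjusted p = 0.026), as were FCGR2A (1.57 and 1.56) and FCER1G (1.06 and 1.09), and PRAM1 was lower (-0.85 and -0.89). Each of these 4 genes differed between Scr and WT in the other direction: PTPRC by -1.10, FCGR2A by -1.38, FCER1G by -0.88 and PRAM1 by 0.68. They were among 1 higher and 6 lower of the 40 (PTPN22 by -1.17), where 8.62% of all genes were called. EZH2 KD over WT called 0 of 40, where 0.163% of all genes were called. Scr replicates 1 and 2 are among the arrays of high median, and without the 6 arrays of high median, a setting chosen after seeing the data that leaves 1 Scr array, 0 of 40 were called for either hairpin over Scr or for Scr over WT.

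With ATRA, ITGAM was higher in shEZH2_1_ATRA (1.60, adjusted p = 0.000761, limma) and shEZH2_2_ATRA (2.30, adjusted p = 1.28e-05) than in Scr_ATRA, and in EZH2 KD_ATRA than in WT_ATRA (1.61, adjusted p = 0.000164). TYROBP was higher in the same 3 comparisons (1.62, 1.52 and 1.36), FCER1G over Scr_ATRA in both (1.25 and 1.32), SKAP2 in shEZH2_1_ATRA (0.67), FCGR2A in shEZH2_2_ATRA (1.43) and CSF3R over WT_ATRA (1.19). PAG1 was lower over WT_ATRA (-0.89, adjusted p = 0.00202). The 4 calls over Scr_ATRA became 2 for shEZH2_1_ATRA and 1 for shEZH2_2_ATRA with 1 fit per experiment, and 2 for shEZH2_2_ATRA with the replicate block or with centring on array medians. Over WT_ATRA 3 of 40 were higher and 1 lower, where 1.31% of all genes were called, and 7 were called after quantile normalization. By the methods' t-test 0 of 40 were called over WT_ATRA, and 0 for either hairpin over Scr_ATRA.

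The genes whose 14 group means ran most like those of 3 members were taken from the top 40% by Pearson's r, as a description, since all 14 means share the split by ATRA. For FGR they were GNG2 (r = 0.9965), DHRS3, an enzyme of retinoid metabolism (0.99), CCR1, a chemokine receptor (0.9888), MYADM (0.9868) and ADGRE2 (0.984). For SLA they were ICAM1, an adhesion receptor (0.9816), ST14 (0.9795), FAM20C (0.9771), SAR1A (0.9766) and MYADM (0.9762). For LYN they were DNAJC13 (0.9749), COTL1 (0.9692), SLC16A7 (0.9675), VAV1, a signaling protein of blood cells (0.9653), and SPI1, which encodes PU.1 (0.9638).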

How the data were processed

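The deposited table holds log2 values: the authors normalized the arrays by GC-RMA in Partek and afterwards removed batch effects there. Its batches, dates and software versions stay unnamed here (not given in the sources used here), and the log2 scale was taken from the range of the values, 3.18 to 14.49. Of 33297 probe sets, 19460 map to 1 symbol, and a gene with several was represented by its brightest on average (18417 genes). One limma 3.58.1 fit (R 4.3.3) with a mean per group covered all 42 arrays (28 residual degrees of freedom), with Benjamini-Hochberg adjustment over all genes, and was tested on simulated data. Of these genes, 7367 lay in the top 40% by mean and could be called. Array number sets the precision. In no comparison was the share of all genes whose groups did not overlap counted, so a lack of overlap is only a description.

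The 8 genes and the partner list were chosen with earlier results of these data known. Every member was named. Of the partner list, up to 4 called genes in each direction of a comparison were named, or all where 5 or fewer were called, and further genes of the list named under ATRA were chosen after their values were seen. FYB1, which was not called, was also named after its values were seen. The 5 genes most like FGR, SLA and LYN were named too. Alternatives changed the fit, scaling, filter, fold, probe sets and test, added the replicate block and left out single arrays. Promoter windows came from RefSeq (GRCh38.p14).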

Additional observations from a re-analysis of the deposited data

Results flagged for a closer look

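SRC differed with HKMTI-1-005 in opposite directions with and without ATRA, at a low level. It read 4.84, 4.86 and 4.86 in HKMTI_ATRA arrays, against 5.24, 5.10 and 4.91 in ATRA arrays, all lower (difference -0.23, adjusted p = 0.234, limma). It read 4.79, 4.75 and 4.76 in HKMTI arrays, against 4.67, 4.62 and 4.72 in untreated arrays, all higher (difference 0.10, adjusted p = 1, limma). Neither difference passed. The term between them was -0.33 and is given without a test, since it is built from ATRA differences by which SRC was among the genes chosen. SRC lies below the top 40% of genes and could not be called.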

How the results depend on the processing

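With the replicate block (replicate numbers within an experiment as a block), the number of members called was kept in 28 of 28 comparisons (7 of them the ATRA contrasts by which the genes were chosen), with 1 for HKMTI_ATRA over ATRA and 2 for EZH2 KD_ATRA over WT_ATRA. The numbers were not taken to pair the samples, since correlations of the deviations of same-numbered arrays ran from -0.682 to 0.711 (median 0.084) in the inhibitor and from -0.749 to 0.705 (median -0.023) in the knockdown experiment, and nothing in the labels says what a number shares. Of the partner list, shEZH2_2_ATRA over Scr_ATRA had 2 calls with the block and 4 without it. The 28 comparisons include the terms between ATRA differences, where the rule took 0% to 0.00543% of all genes. A member count of 0 that stayed 0 was taken as kept, as was a small change of a higher count.

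The count of members called was also kept with no expression filter, no fold threshold and a trended, robust prior (21 of 21 comparisons each, the terms between ATRA differences included). The mean of all probe sets cannot move a member, as each has 1 probe set. For HKMTI_ATRA over ATRA it was 0 with 1 fit per experiment, 0 with centring on array medians and 0 by the methods' t-test, against 1. For HKMTI_ATRA over GSK343_ATRA it was 0 by that t-test, against 1. For EZH2 KD_ATRA over WT_ATRA it was 1 (FYN) with 1 fit per experiment and 0 by the t-test, against 2. Quantile normalization gave 1 (LYN) for shEZH2_2_ATRA over Scr_ATRA and centring on array medians gave 1 (FYN) for Scr over WT, against 0 each. Centring moved the median of all genes to -0.17 for Scr over WT, 0.11 for shEZH2_1 over Scr and 0.14 for Scr by ATRA. Leaving out single arrays gave 0 to 1 members for HKMTI_ATRA over ATRA, 0 to 1 for HKMTI_ATRA over GSK343_ATRA, 0 to 1 for shEZH2_1_ATRA over Scr_ATRA, 0 to 1 for shEZH2_1 over Scr, 0 to 1 for Scr over WT and 1 to 2 for EZH2 KD_ATRA over WT_ATRA.

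Without the 6 arrays of high median, a setting chosen after seeing the data, Scr_ATRA over Scr was left with 1 Scr array and had 1 member past the rule (FGR) against 3. FYN was at -1.05 and SLA at 1.15 there. In that setting EZH2 KD_ATRA over WT_ATRA had 1 (FYN) against 2, and LCK in Scr over WT, which was not called, turned from 0.22 to -0.052. The term across experiments has no value with 1 fit per experiment. The causes were not tested. With 3 arrays a group, small differences are often not detectable, and SRC and LCK lie in the low range of the arrays.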
